A study of Rattus norvegicus with 12 samples.

Results

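Expression of 8 genes that carry short-chain fatty acids into colonic cells, sense them, oxidize butyrate and make or use ketone bodies was measured in rat colon. The genes were Slc16a1, Slc5a8, Ffar2, Ffar3, Acads, Bdh1, Acat1 and Oxct1. Every probe that the array files named for one of them was taken, which gave 8 probes, 1 per gene, among 30367 probes with 26514 names. Colon was taken from 12 male Wistar rats of 200 to 250 g at postnatal day 60, from the same distal segment in each rat as the methods state, and each rat was measured on 1 array. All of them had received a daily gavage of 100 µL from day 3 to day 60, and all underwent colorectal distension (CRD). By the methods, the rats were kept without food for 12 hours before CRD. Group C (rats C1 to C4) stayed with the dam and received placebo. Group M (rats M5 to M8) was separated from the dam for 180 min a day from day 2 to day 14, which is the neonatal maternal separation (NMS) model of visceral hypersensitivity, and received placebo. Group D (rats D9 to D12) underwent the same NMS and received the probiotic mixture VSL#3 at 1.8e10 bacteria a day by the labels. Group M vs Group C therefore compares NMS with normal handling, and Group D vs Group M compares VSL#3 with placebo in rats that all underwent NMS. No group received VSL#3 without NMS.

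Short-chain fatty acids are made by colonic bacteria from fibre, and butyrate is the main fuel of the colonocyte. Butyrate enters the cell through monocarboxylate transporters, is shortened in the mitochondrion by beta-oxidation, and its acetyl-CoA can be burnt or condensed into the ketone bodies acetoacetate and beta-hydroxybutyrate. The same fatty acids also signal from outside the cell through G protein-coupled receptors, which are found on epithelial, enteroendocrine and immune cells of the gut.

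The probes are 60 bases long, and their sequences are given for the genes in which they show what was measured. The probe of Slc5a8 lay at chr7:25626307-25626366 of the rn4 build, on the plus strand, that of Ffar2 at chr1:85878452-85878511 and that of Ffar3 at chr1:85911329-85911388, both on the minus strand, and that of Acat1 at chr8:57056663-57056722 on the minus strand. The capitals mark the last triplet of the probes of both receptors, which reads as a stop codon in the first frame of the probe. The receptor genes are neighbours and relatives, and their probes lay 32817 bases apart, shared no run longer than 5 bases and had the same base at 19 of 60 positions. Over all 28 pairs of the 8 probes the longest shared run was 9 bases.
Slc5a8: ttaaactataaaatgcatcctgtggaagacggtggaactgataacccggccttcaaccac
Ffar2: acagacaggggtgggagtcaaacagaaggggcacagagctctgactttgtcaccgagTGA
Ffar3: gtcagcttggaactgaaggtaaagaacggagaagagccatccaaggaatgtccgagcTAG
Acat1: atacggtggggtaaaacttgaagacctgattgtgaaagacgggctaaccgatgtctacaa

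The probe of Acads lay at chr12:42774463-42774522 on the plus strand. Its last 30 bases are shown because they hold the hexamer AATAAA (capitals), the usual polyadenylation signal, so this probe reads the 3′ end of the transcript.
Acads: agctgcctgtggtcAATAAAgctcacctgt

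The other probes lay at chr2:199879777-199879836 on the plus strand for Slc16a1, at chr11:71130669-71130728 on the minus strand for Bdh1 and at chr2:53217671-53217730 on the plus strand for Oxct1. The probe of Oxct1 was spotted 10 times on each array, that of Slc5a8 once, and the others 2 times.

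Levels below are log2 signals relative to the 75th percentile of the array, so 0 is the 75th percentile and a difference of 1 is a 2-fold difference. That percentile was 1434 to 1953 intensity units, and on all 12 arrays 7 of the 8 probes gave a signal well above background. The exception was Ffar3, for which this held on 2 arrays. The methods of the study name 11 arrays and its heat maps show D9 to D11, so D12 was taken to be the array left out. The tests below use these 11. Values for all 12 arrays stand beside most counts and some of the genes, and where none is given the value is for 11 arrays alone. Groups C and M lay on 1 slide, each in an array row of its own, and Group D lay on a second slide with its own scan. Group and slide therefore cannot be told apart in any comparison with Group D, nor group and array row in Group M vs Group C. In a piece of colon, fewer cells of a type and less RNA per cell cannot be told apart.

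In Group M all 8 genes had a lower mean than in Group C, by 0.15 to 1.14 on the log2 scale. The median difference of the 8 was -0.29, against -0.01 over all probes, of which 52.1% were lower. Differences were widest for the receptor Ffar2 (-1.14) and for Acads, the first enzyme of butyrate oxidation (-0.84). In Group D without D12, the means of 7 of the 8 genes were above those of Group M, and Bdh1 was the exception. The median difference of Group D vs Group M was 0.28, against 0.01 over all probes. With D12 it was 0.17, against -0.01 over all probes, and 6 of the 8 genes were higher. Both comparisons use the same Group M rats, so a low Group M moves both.

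None of these differences passed the test. In Group M vs Group C limma called 0 of the 8 genes at an adjusted p of at most 0.05, with p adjusted over all 30367 probes, of which 0.204% were called. By unadjusted p (at most 0.05) there were 3 of 8, Ffar2, Acads and Acat1, all lower, against 22.7% of all probes (12.6% lower). By the criterion of the study's methods, which takes unadjusted p and a 2-fold change of the means, 1 of 8 was called, Ffar2, against 2.31% of all probes. In Group D vs Group M limma called 0 of 8 (0.171% of all probes), and by unadjusted p there were 3 of 8, Ffar2, Ffar3 and Acads, all higher, against 21.6% (11.3% higher). The criterion of the methods called 0 of 8 there, against 2.66% of all probes. In Group D vs Group C limma called 0 of 8 (0.00659% of all probes), by unadjusted p there were 0 (5.97%), and 0 met the criterion of the methods (0.369%).

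With all 12 arrays the counts by unadjusted p were 2 of 8 (Ffar2 and Acads) against 18.5% of all probes in Group M vs Group C, 1 of 8 (Ffar3, higher) against 12.2% (5.86% higher) in Group D vs Group M, and 0 of 8 against 6.85% in Group D vs Group C. Limma called 0 of 8 in each comparison, against 0.0395%, 0.0198% and 0.00659% of all probes, and the criterion of the methods called 0 of 8 in each, against 1.56%, 0.948% and 0.342%. The calls depended on rat M6 and on the weight given to each array. Without M6, limma called Ffar2 and Acads in Group M vs Group C, where 16.2% of all probes were called, and the same 2 genes in Group D vs Group M, where 14.8% were called. With array quality weights it called Ffar2, Acads and Acat1 in Group M vs Group C (28.3% of all probes) and Ffar2 and Acads in Group D vs Group M (22.7%).

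**Figure D1:**
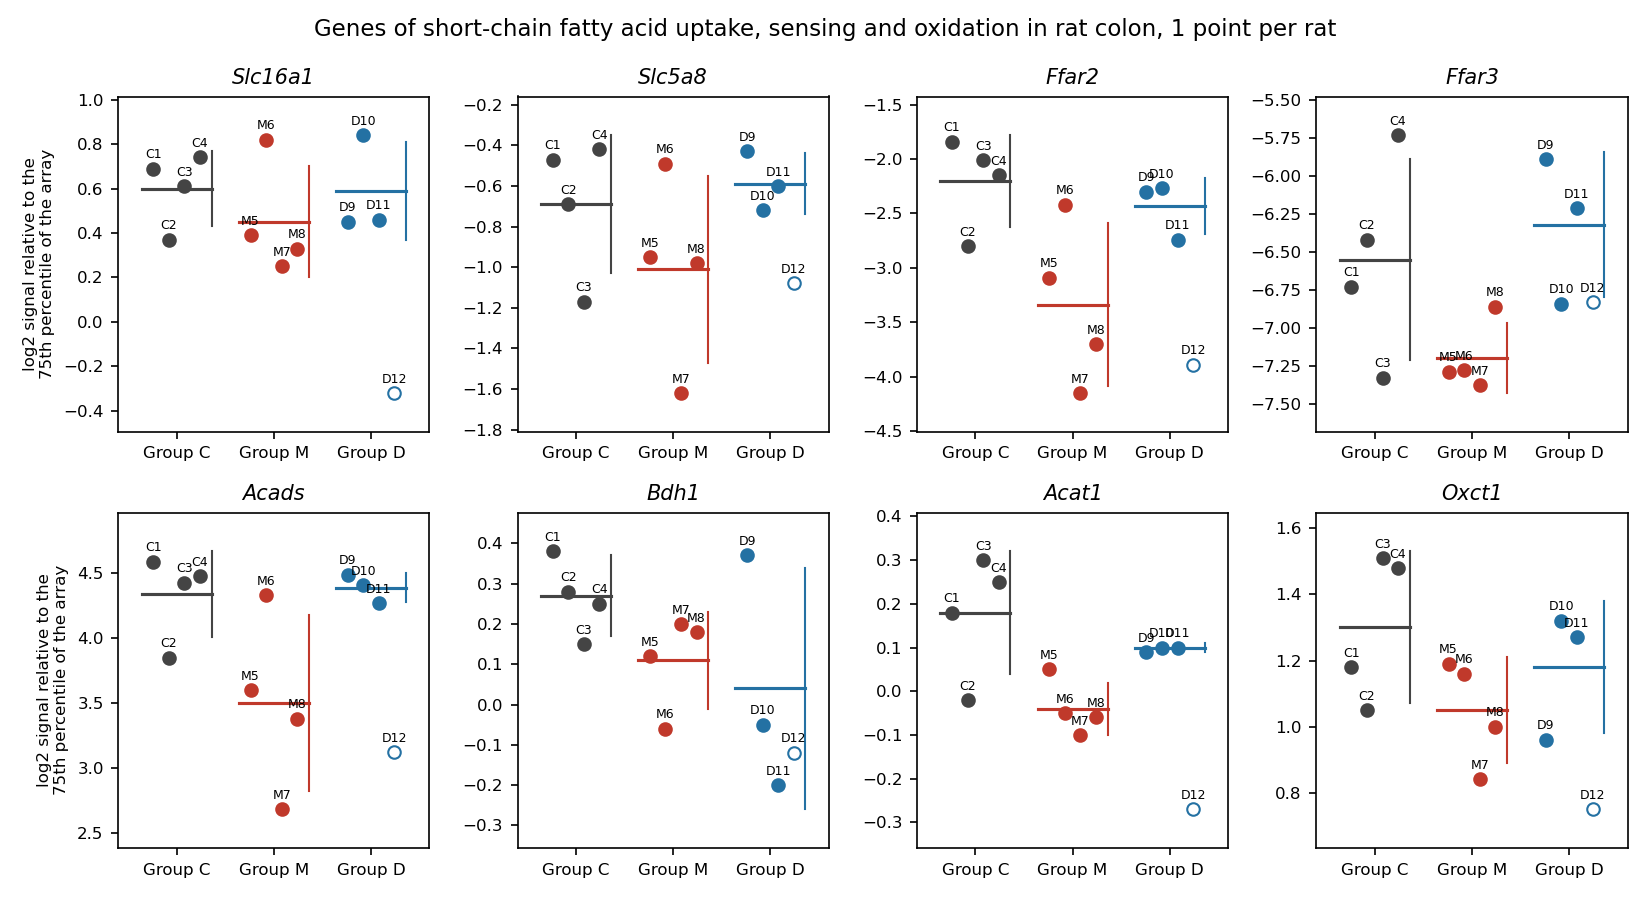
Level of each of the 8 genes by rat. Each panel is 1 gene, the y axis is the log2 signal relative to the 75th percentile of the array (scales differ between panels), points are rats, horizontal lines are group means and vertical lines ± 1 SD, and the open circle is D12, which is left out of the mean of Group D. M7 and D12 are each among the lowest 3 rats for 7 of the 8 genes, and for Ffar2 and Acads M6 sits with the rats of Group C.

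Uptake of butyrate was represented by 2 transporters. Slc16a1 encodes MCT1, a proton-coupled monocarboxylate transporter that carries butyrate, lactate and ketone bodies. Its level was 0.69, 0.37, 0.61 and 0.74 in C1 to C4, 0.39, 0.82, 0.25 and 0.33 in M5 to M8, and 0.45, 0.84, 0.46 and -0.32 in D9 to D12. The groups overlapped, M6 and D10 were the highest rats, and D12 was the lowest. The mean was 0.60 ± 0.17 (SD, n = 4) in Group C, 0.45 ± 0.25 (n = 4) in Group M and 0.59 ± 0.22 (n = 3) in Group D. Group M vs Group C differed by -0.15 (95% confidence interval -0.49 to 0.18, limma adjusted p = 0.587). Group D vs Group M differed by 0.14 (-0.23 to 0.50, adjusted p = 0.683), and by -0.09 with D12. These intervals exclude a 2-fold difference in either direction.

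Slc5a8 encodes SMCT1, a sodium-coupled transporter of the apical membrane that takes up butyrate and other monocarboxylates. Its level was -0.47, -0.69, -1.17 and -0.42 in Group C, -0.95, -0.49, -1.62 and -0.98 in Group M, and -0.43, -0.72, -0.60 and -1.08 in Group D. M7 was the lowest rat and C3 the second lowest, and the groups overlapped. The mean of Group M was 0.32 below that of Group C (difference -0.32, interval -0.85 to 0.20, limma adjusted p = 0.453). Group D without D12 differed from Group M by 0.42 (-0.14 to 0.99, adjusted p = 0.366), and with D12 by 0.30.

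The receptor Ffar2 (GPR43) binds acetate, propionate and butyrate and is found on enteroendocrine cells and on leukocytes, mainly neutrophils. Its level was -1.84, -2.80, -2.01 and -2.15 in C1 to C4, and -3.09, -2.42, -4.15 and -3.70 in M5 to M8. The rats M5, M7 and M8 lay below every rat of Group C, and M6 lay within Group C. Group D had -2.30, -2.27, -2.74 and -3.89, so D9 to D11 lay within the range of Group C and D12 lay with the low rats of Group M. Ffar2 had the widest spread of the 8 genes over the 12 rats, with an SD of 0.77, wider than or equal to that of 91.9% of all probes.

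The mean of Ffar2 was -2.20 ± 0.42 (SD, n = 4) in Group C, -3.34 ± 0.75 (n = 4) in Group M and -2.43 ± 0.26 (n = 3) in Group D. Group M was thus 2.21-fold below Group C (difference -1.14, interval -1.92 to -0.37, limma unadjusted p = 0.00811, adjusted p = 0.119). Without M6 the difference was -1.45 with an adjusted p of 0.016 by limma, and without M7 it was -0.87 with an adjusted p of 0.264. Over the alternatives tried, its adjusted p ran from 0.00463 to 0.267. Group D was 1.87-fold above Group M without D12 (difference 0.91, interval 0.07 to 1.74, unadjusted p = 0.0364, adjusted p = 0.201 by limma). With D12 the difference was 0.54 (interval -0.40 to 1.48), and without M6 it was 1.21 with an adjusted p of 0.0325 by limma.

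The second receptor, Ffar3 (GPR41), prefers propionate and butyrate and is known from enteroendocrine cells and neurons of the gut wall. Its level was -6.73, -6.42, -7.33 and -5.73 in Group C, -7.29, -7.28, -7.38 and -6.86 in Group M, and -5.89, -6.84, -6.21 and -6.83 in Group D. The probe was well above background on the arrays of C4 and D9 alone, the 2 highest rats, and on no array of Group M. The lowest level counted as well above background was -6.75 to -6.51 on the arrays of Group M, and with 1 rat measured well above background in Group C and 1 in Group D no fold is given. The measured mean was -6.55 in Group C, -7.20 in Group M and -6.32 in Group D (-6.44 with D12). The limma adjusted p was 0.256 for Group M vs Group C and 0.178 for Group D vs Group M. No rat of Group M reached the lowest rat of Group D, although M8 (-6.86) and D10 (-6.84) lay side by side and neither was well above background. Such a separation upwards in Group D vs Group M was found for 2 of the 8 genes, Ffar3 and Acat1, and for 8.46% of all probes, and with D12 for Ffar3 alone and for 2.52%. None of the 8 genes separated Group M downwards from Group C, as 5.05% of all probes did.

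Acads encodes the short-chain acyl-CoA dehydrogenase, the mitochondrial enzyme that opens the beta-oxidation of butyryl-CoA. Its level was 4.59, 3.85, 4.43 and 4.48 in C1 to C4, and 3.60, 4.33, 2.68 and 3.38 in M5 to M8. In Group D it was 4.49, 4.41, 4.27 and 3.12. C2, M5, M7, M8 and D12 lay between 2.68 and 3.85, and the other 7 rats between 4.27 and 4.59, so low rats were found in each group, 1 in Group C, 3 in Group M and 1 in Group D.

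The mean of Acads was 4.34 ± 0.33 (SD, n = 4) in Group C, 3.50 ± 0.68 (n = 4) in Group M and 4.39 ± 0.11 (n = 3) in Group D. Group M was 1.79-fold below Group C (difference -0.84, interval -1.51 to -0.17, limma unadjusted p = 0.0187, adjusted p = 0.148). Leaving out M6 gave -1.11 with an adjusted p of 0.0195 by limma, and leaving out M7 gave -0.57 with an adjusted p of 0.316. Over the alternatives tried, its adjusted p ran from 0.00672 to 0.316. Group D was 1.86-fold above Group M without D12 (difference 0.89, interval 0.17 to 1.61, unadjusted p = 0.0201, adjusted p = 0.159). With D12 the difference was 0.57 (interval -0.24 to 1.39, adjusted p = 0.557), and without M6 it was 1.17 with an adjusted p of 0.0212 by limma.

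Ketone body metabolism was represented by 3 enzymes of the mitochondrion. Bdh1, the dehydrogenase that interconverts acetoacetate and beta-hydroxybutyrate, had levels of 0.38, 0.28, 0.15 and 0.25 in Group C, 0.12, -0.06, 0.20 and 0.18 in Group M and 0.37, -0.05, -0.20 and -0.12 in Group D. The groups overlapped, and within Group M the order was not that of Acads or Ffar2, since M7 was the highest rat and M6 the lowest. D11 and D12 were the lowest of all rats. Group M vs Group C differed by -0.16 (interval -0.44 to 0.13, limma adjusted p = 0.506), Group D vs Group M by -0.07 (-0.38 to 0.24, adjusted p = 0.816) and Group D vs Group C by -0.23 (-0.54 to 0.08, adjusted p = 0.922).

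Acat1, the mitochondrial acetoacetyl-CoA thiolase, works at both ends of the pathway, in the formation of acetoacetyl-CoA and in its cleavage when ketone bodies are used. Its level was 0.18, -0.02, 0.30 and 0.25 in Group C, 0.05, -0.05, -0.10 and -0.06 in Group M, and 0.09, 0.10, 0.10 and -0.27 in Group D. The groups C and M overlapped through C2 and M5, D9 to D11 lay above every rat of Group M, and D12 was the lowest of all rats. The spread of Acat1 over the 12 rats was the smallest of the 8 genes (SD 0.16). Group M was 1.16-fold below Group C (difference -0.22, interval -0.42 to -0.02, limma unadjusted p = 0.0333, adjusted p = 0.183), with an unadjusted p of 0.0729 with all 12 arrays. Group D vs Group M differed by 0.14 (-0.08 to 0.35, adjusted p = 0.447), and by 0.05 with D12.

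Oxct1 encodes succinyl-CoA:3-oxoacid CoA transferase, the enzyme that commits acetoacetate to oxidation. Its level was 1.18, 1.05, 1.51 and 1.48 in Group C, 1.19, 1.16, 0.84 and 1.0 in Group M, and 0.96, 1.32, 1.27 and 0.75 in Group D. C3 and C4 were above all other rats, and D12 and M7 were the lowest. Group M vs Group C differed by -0.26 (interval -0.57 to 0.06, limma adjusted p = 0.308), and Group D vs Group M by 0.14 (-0.20 to 0.48, adjusted p = 0.654) or, with D12, by 0.03.

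**Figure D2:**
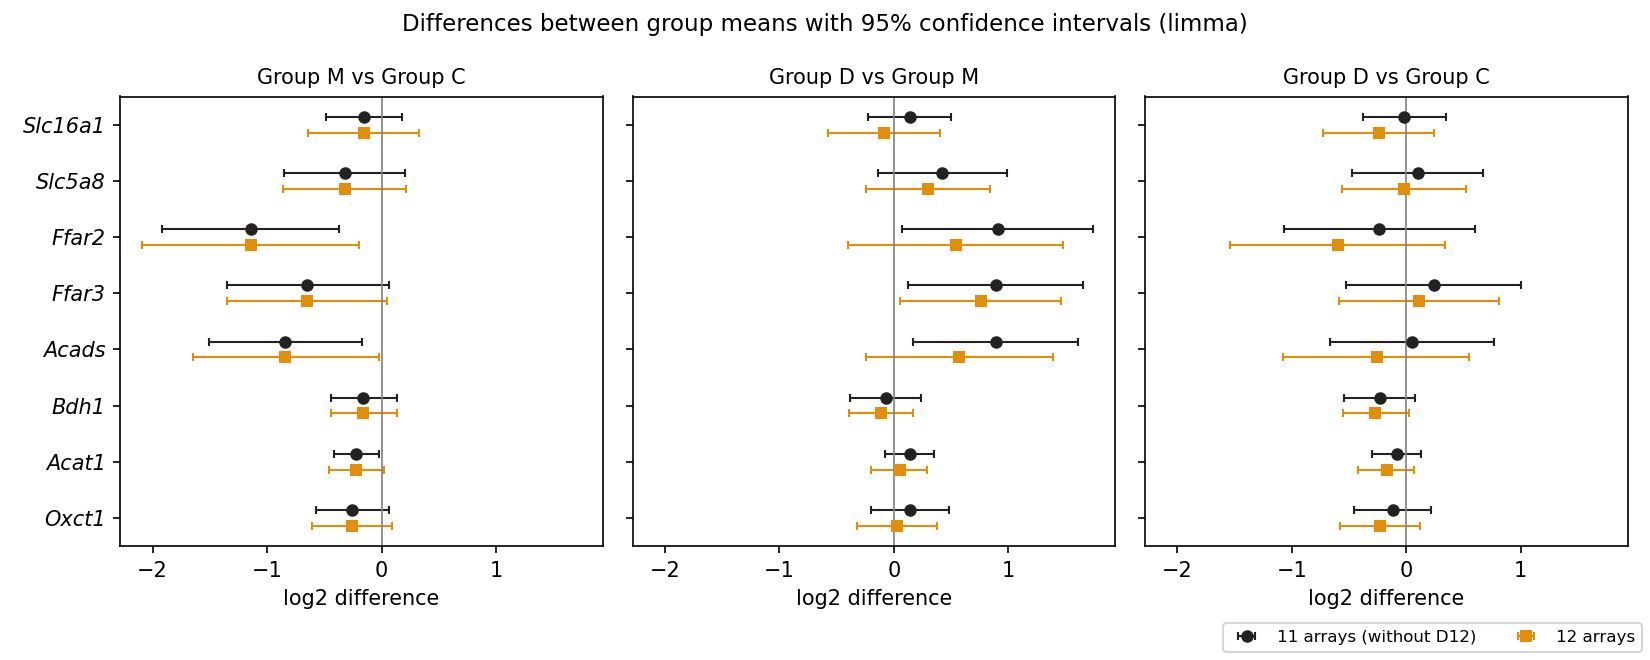
Differences between group means of the 8 genes in the 3 comparisons. The x axis is the log2 difference, bars are 95% confidence intervals of limma, circles are 11 arrays and squares 12 arrays. For Ffar2 and Acads the interval of Group M vs Group C lies below 0 in both sets of arrays, while that of Group D vs Group M lies above 0 only without D12. The values of Ffar3 are measured differences of a probe near background.

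Group D without D12 lay near Group C. Of the 8 genes 5 had a lower and 3 a higher mean, with differences from -0.24 (Ffar2) to 0.24 (Ffar3) and a median of -0.05. With D12, 7 were lower and 1 higher, and the median was -0.24. The intervals were wide for the receptors, -1.07 to 0.60 for Ffar2 and -0.53 to 1.0 for Ffar3, for Acads (-0.67 to 0.77) and for Slc5a8 (-0.47 to 0.67), so a difference of 1.5-fold between Group D and Group C was not excluded for these 4 genes.

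Several of the genes varied together across the rats. Of 28 pairs, 13 had an adjusted permutation p of r of at most 0.05 over the 12 rats, and in all 13 r was positive. Of these, Slc5a8 with Ffar2 (adjusted permutation p of rho 0.121) and Acads with Oxct1 (0.147) did not pass by Spearman's rho. The permutations mixed rats of all groups, so differences between groups enter these p. The share of pairs of other probes that pass was not computed. Ffar2 and Acads had the highest correlation, with Pearson's r = 0.97 (permutation p = 1e-05, the smallest that 100000 resamples can give, adjusted over the pairs 0.00028) and Spearman's rho = 0.95 (permutation p = 4e-05, adjusted 0.00112). Without M7 and D12, the 2 rats farthest from the median of Ffar2, r was 0.95, over the 8 rats of slide 1 it was 0.98, and over deviations from the group means it was 0.98. The rats thus ranked alike for both genes within as well as between groups. Both genes were measured on the same array from the same piece of tissue of each rat, and 955 of 13582 other probes well above background on all arrays (7.03%) had an r of at least 0.9 with Acads.

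Acat1 and Oxct1 followed with r = 0.89 (permutation p = 0.0001, adjusted 0.0014) and rho = 0.87 (permutation p = 0.00051, adjusted 0.00476). Their r was 0.77 without C3 and D12 and 0.92 over the 8 rats of slide 1. The transporter Slc5a8 had r = 0.81 with Acads (permutation p = 0.00193, adjusted 0.0102, rho = 0.73 with permutation p = 0.00894, adjusted 0.0278) and 0.94 without C3 and M7. Bdh1 had an r of -0.02 to 0.35 with the other 7 genes, and none of these passed. Ffar3 passed with Slc5a8 alone (r = 0.67, permutation p = 0.016, adjusted 0.0345, rho = 0.80 with permutation p = 0.00313, adjusted 0.0146, and r = 0.54 without C3 and M7). For Ffar2 with Ffar3, the neighbouring receptor genes, r was 0.34 (permutation p = 0.279, adjusted 0.411, rho = 0.34 with permutation p = 0.287, adjusted 0.399), with Ffar3 near background on most arrays.

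**Figure D3:**
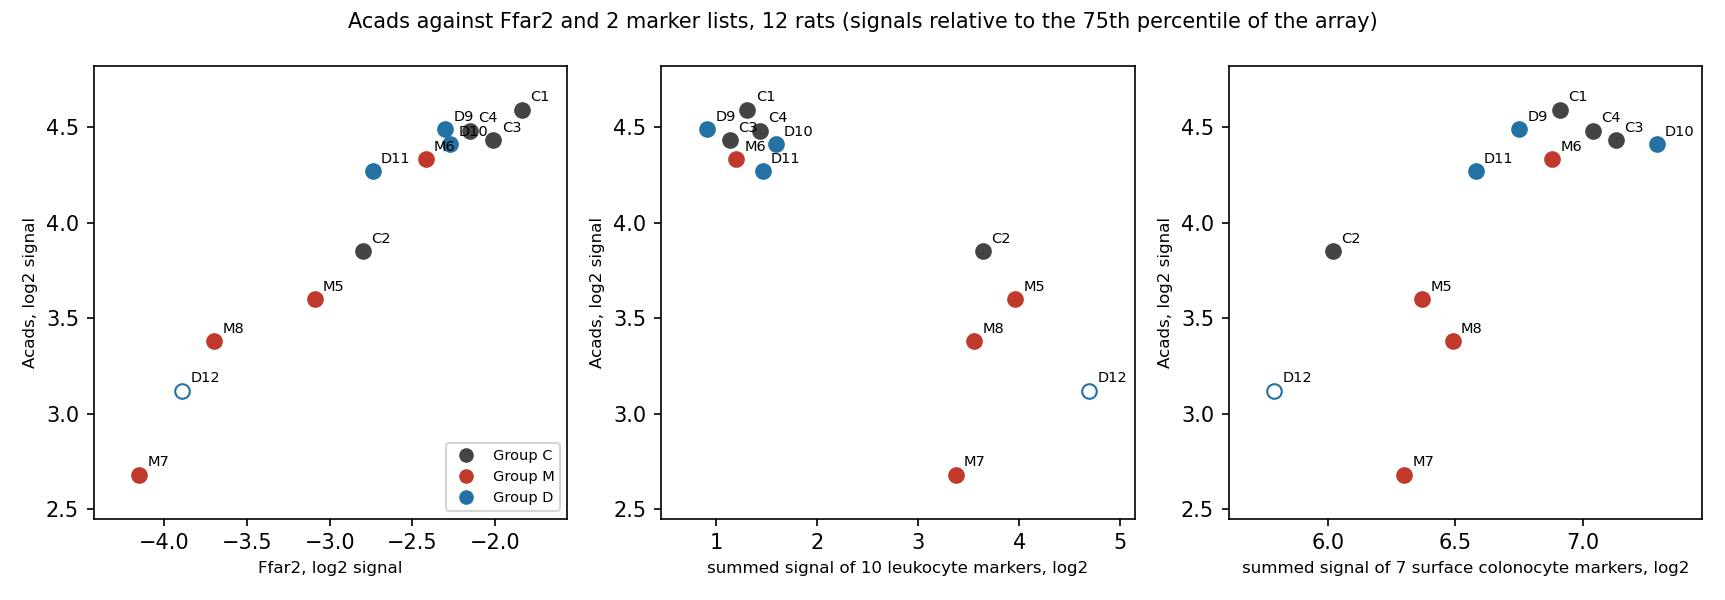
Level of Acads against that of Ffar2 and against the summed signals of 2 marker lists. Points are the 12 rats, the open circle is D12, and both axes are log2 signals relative to the 75th percentile of the array. Acads and Ffar2 rank the rats alike (r = 0.97), and the 5 rats with leukocyte sums of 3.37 to 4.69 are the 5 rats with the lowest Acads.

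Some marker sums followed these levels over the 12 rats and others did not, which was not tested. With Acads, r was -0.93 for neutrophil, -0.86 for leukocyte and 0.77 for surface colonocyte markers. It was 0.94 for Hox genes, 0.96 for adipocyte, 0.66 for squamous, -0.54 for skeletal muscle and 0.47 for goblet cell markers. For pancreatic acinar markers r was 0.35, for enteric neurons and glia 0.28, for colonic epithelium -0.34 and for smooth muscle -0.19. The markers of colon were present. On all arrays 9 of 9 markers of colonic epithelium, 7 of 7 of smooth muscle and 4 of 4 Hox genes of the distal hindgut were well above background. The 10 leukocyte markers, of which 8 were well above background on all arrays, summed to 3.64 in C2, 3.96 in M5, 3.37 in M7, 3.55 in M8 and 4.69 in D12. In the other 7 rats they summed to 0.91 to 1.59, with M6 at 1.20. In Group M vs Group C the median difference of the 10 was 1.04, with 8 higher, of which 1 by unadjusted p (10% of all probes were higher). In Group D vs Group M the median was -1.61, and 6 were lower by unadjusted p (10.3% of all probes were lower). Limma called 0 in both. With D12 the counts by unadjusted p were 0 and 0, and the median of Group D vs Group M was -0.73. These 5 rats were the 5 lowest for Acads (2.68 to 3.85) and for Ffar2 (-4.15 to -2.80), and also for Slc16a1, with -0.32 to 0.39 against 0.45 to 0.84 in the other 7. The 2 sets of rats overlapped for the other genes. For Bdh1 the same 5 rats had -0.12 to 0.28 and the others -0.20 to 0.38. For Slc5a8 they had -1.62 to -0.69 against -1.17 to -0.42, and for Ffar3 -7.38 to -6.42 against -7.33 to -5.73. For Acat1 they had -0.27 to 0.05 against -0.05 to 0.30, and for Oxct1 0.75 to 1.19 against 0.96 to 1.51. The split was read from these data, and the share of all probes that separate the same rats was not computed.

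The 6 neutrophil markers, with Elane not well above background on any array, summed to -3.25 to -1.45 in Group C, -2.81 to 1.88 in Group M, -2.96 to -2.67 in D9 to D11 and -1.32 in D12, and M7 was the highest rat. That sum was mostly S100a8 and S100a9, the only 2 of the 6 well above background on all arrays. Csf3r and Mpo were well above it on 3 arrays and Il8rb on 2. All 6 were higher in Group M vs Group C, Mpo by 0.08. In Group D vs Group M 5 were lower, and Mpo was higher by 0.08. Surface colonocyte markers, 7 of 7 well above background on all arrays, summed to 6.02 to 7.13 in Group C, 6.30 to 6.88 in Group M, 6.58 to 7.29 in D9 to D11 and 5.79 in D12. That sum was mostly Guca2a, and some single markers differed more. In Group M vs Group C 5 of the 7 were lower and 2 higher, with a median of -0.45. There Car1 differed by -1.61 (limma adjusted p = 0.106), Aqp8 by -1.36 (0.222), Car4 by -0.46 (0.439) and Slc26a3 by -0.45 (0.414). In Group D vs Group M 4 were higher and 3 lower, with a median of 1.01, or 0.74 with D12. The 4 higher were Car1 (1.77, limma adjusted p = 0.101), Car4 (1.41, 0.0932), Aqp8 (2.09, 0.13) and Slc26a3 (1.01, 0.137). All 4 separated D9 to D11 upwards from Group M, as did 8.46% of all probes. With D12 their limma adjusted p was 0.41, 0.306, 0.454 and 0.434 in the same order. Guca2b had the opposite sign (1.01 and -1.28), Guca2a differed by -0.19 and -0.02, and Ceacam1 by 0.11 and -0.06. Limma called 0 of the 7 in both comparisons. The Hox genes, which mark position along the gut, summed to 4.81 to 5.12 in Group C, 4.19 to 5.07 in Group M, 5.00 to 5.30 in D9 to D11 and 4.39 in D12, again with M7 lowest. That sum was mostly Hoxb13 and Hoxa13, and the genes went both ways. In Group M vs Group C Hoxb13 differed by -0.48, Hoxa13 by -0.26, Hoxd12 by 0.51 and Hoxd13 by 0.18. In Group D vs Group M they differed by 0.68, 0.21, -1.27 and 0.22. The 6 adipocyte markers summed to 1.62 to 3.12 in Group C, 0.20 to 2.29 in Group M, 2.22 to 2.98 in D9 to D11 and 0.77 in D12. Plin and Lep were not well above background on any array, and the adipocyte sum was mostly Pck1, which is not particular to adipocytes. Adipoq differed by -0.23 and -0.82 and Cidec by 0.04 and -0.63 in Group M vs Group C and Group D vs Group M. Colonic epithelium as a whole summed to 7.51 to 7.82 in Group C, 7.64 to 8.36 in Group M, 7.62 to 8.07 in D9 to D11 and 7.52 in D12. The part of these cell types in the levels of the 8 genes was not tested.

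Other genes of the pathway were read from 4 lists of 69 genes, of which 66 were measured, each by its brightest probe. In Group M vs Group C limma called 0 of 66, and by unadjusted p there were 24, 18 lower and 6 higher, against 22.7% of all probes. The median difference was -0.30, and 47 were lower and 19 higher. The criterion of the methods called 7, against 2.31% of all probes. In Group D vs Group M limma called 0 of 66, and by unadjusted p there were 25, 7 lower and 18 higher, against 21.6% of all probes, with a median of 0.28. The criterion of the methods called 8, against 2.66%. With all 12 arrays these 25 became 12, 5 lower and 7 higher, against 12.2% of all probes, and the median was 0.16. In Group M vs Group C 16 were then lower and 7 higher by unadjusted p, against 10% and 8.5% of all probes. Group D vs Group C had 0 called by limma (0.00659% of all probes), 4 of 66 by unadjusted p (5.97%) and 0 by the criterion of the methods (0.369%). Without M6, limma called 18 of 66 genes in Group M vs Group C (16.2% of all probes), as well as 19 of 66 in Group D vs Group M (14.8%).

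By list, the 9 genes of ketone body synthesis and use had a median of -0.60 in Group M vs Group C, 7 lower and 2 higher, and 0.58 in Group D vs Group M. The 26 measured genes of acyl-CoA synthesis and beta-oxidation had medians of -0.33 and 0.32, with 21 lower in Group M vs Group C, 22 higher in Group D vs Group M. For the 18 genes of transport and sensing the medians were -0.30 and 0.31. With all 12 arrays the median of Group D vs Group M was 0.44 for ketone bodies, 0.18 for beta-oxidation and 0.16 for transport and sensing, where the genes higher by unadjusted p went from 6 to 0. The 13 genes of PPAR alpha and the fasting response went both ways, with medians of -0.16 and 0.05, and by unadjusted p 3 were lower and 3 higher in each. With D12 the median of Group D vs Group M had the other sign, -0.12, with 3 lower and 2 higher by unadjusted p. Of all probes, 12.6% were lower and 10% higher by unadjusted p in Group M vs Group C. For Group D vs Group M these shares were 10.3% and 11.3% on 11 arrays, then 6.34% and 5.86% once D12 was included.

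Among the enzymes of these lists, Bdh2 is a cytosolic relative of Bdh1. It differed by -0.85 in Group M vs Group C, with the lowest limma p of the lists (unadjusted p = 0.000901, adjusted p = 0.0895), and by 0.89 in Group D vs Group M (adjusted p = 0.083). Acat2, the cytosolic thiolase, was lower by 1.02 in Group M vs Group C (difference -1.02, adjusted p = 0.113), as was Echs1, the enoyl-CoA hydratase that acts after Acads in beta-oxidation (-0.65, adjusted p = 0.113). The acyl-CoA synthetase Acsm4 differed by -1.09 and 1.32 (adjusted p = 0.106 and 0.0854), but was well above background on 5 arrays.

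Ppara, the nuclear receptor for fatty acids that drives genes of beta-oxidation and ketogenesis, had a mean of -3.80 ± 0.53 in Group C, -5.33 ± 0.75 in Group M and -3.80 ± 0.08 in Group D without D12, which had -5.98. It differed by -1.53 in Group M vs Group C (limma adjusted p = 0.0966) and by 1.52 in Group D vs Group M (adjusted p = 0.0962), or by 0.98 with D12 (adjusted p = 0.481). Angptl4, a secreted inhibitor of lipoprotein lipase, and Adfp, a coat protein of lipid droplets, had the opposite sign, with 1.68 and 1.03 in Group M vs Group C (adjusted p = 0.113 and 0.11) and -2.07 and -1.03 in Group D vs Group M (adjusted p = 0.0943 and 0.119). Both are known targets of the PPAR receptors, and Ucp3, a mitochondrial carrier, differed by -1.07 in Group D vs Group M (adjusted p = 0.101). With D12, Angptl4, Adfp and Ucp3 differed by -1.69, -0.85 and -0.93 in Group D vs Group M (limma adjusted p = 0.271, 0.322 and 0.243).

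Cpt1b, a carnitine palmitoyltransferase of the outer mitochondrial membrane, differed by 0.66 in Group D vs Group M (unadjusted p = 0.000102, adjusted p = 0.0544 by limma) and by 0.42 in Group D vs Group C (adjusted p = 0.544). With D12, Cpt1b differed by 0.62 (limma adjusted p = 0.101) and 0.39 (0.467). Its mean was -1.28 ± 0.14 in Group C, -1.52 ± 0.08 in Group M and -0.86 ± 0.12 in D9 to D11, with D12 at -1.0. The hormone gene Fgf21 differed by 1.21 and 0.85 in the same comparisons, but was well above background on 3 arrays.

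Of the transport genes, Emb, an accessory protein of monocarboxylate transporters, differed by 1.42 in Group M vs Group C (limma adjusted p = 0.116) and by -1.52 in Group D vs Group M (adjusted p = 0.119). With D12, Emb differed by -1.06 in Group D vs Group M (adjusted p = 0.448). Bsg, the accessory protein of MCT1, differed by -0.31 and 0.34 (adjusted p = 0.307 and 0.311). Slc26a3, the chloride and bicarbonate exchanger of the surface epithelium, differed by -0.45 and 1.01 (adjusted p = 0.414 and 0.137), and D9 to D11 lay above every rat of Group M. The butyrate receptor gene Hcar2, named Niacr1 in the files, differed by 0.06 and 0.07 (adjusted p = 0.8 and 0.77). Slc9a3, an apical sodium and hydrogen exchanger named here after its values were seen, had the widest difference of the lists, 3.02 in Group D vs Group M (adjusted p = 0.184) or 1.72 with D12, was well above background on 10 arrays, and had SDs of 0.86 to 2.09 within groups with D12 at -6.94.

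**Figure D4:**
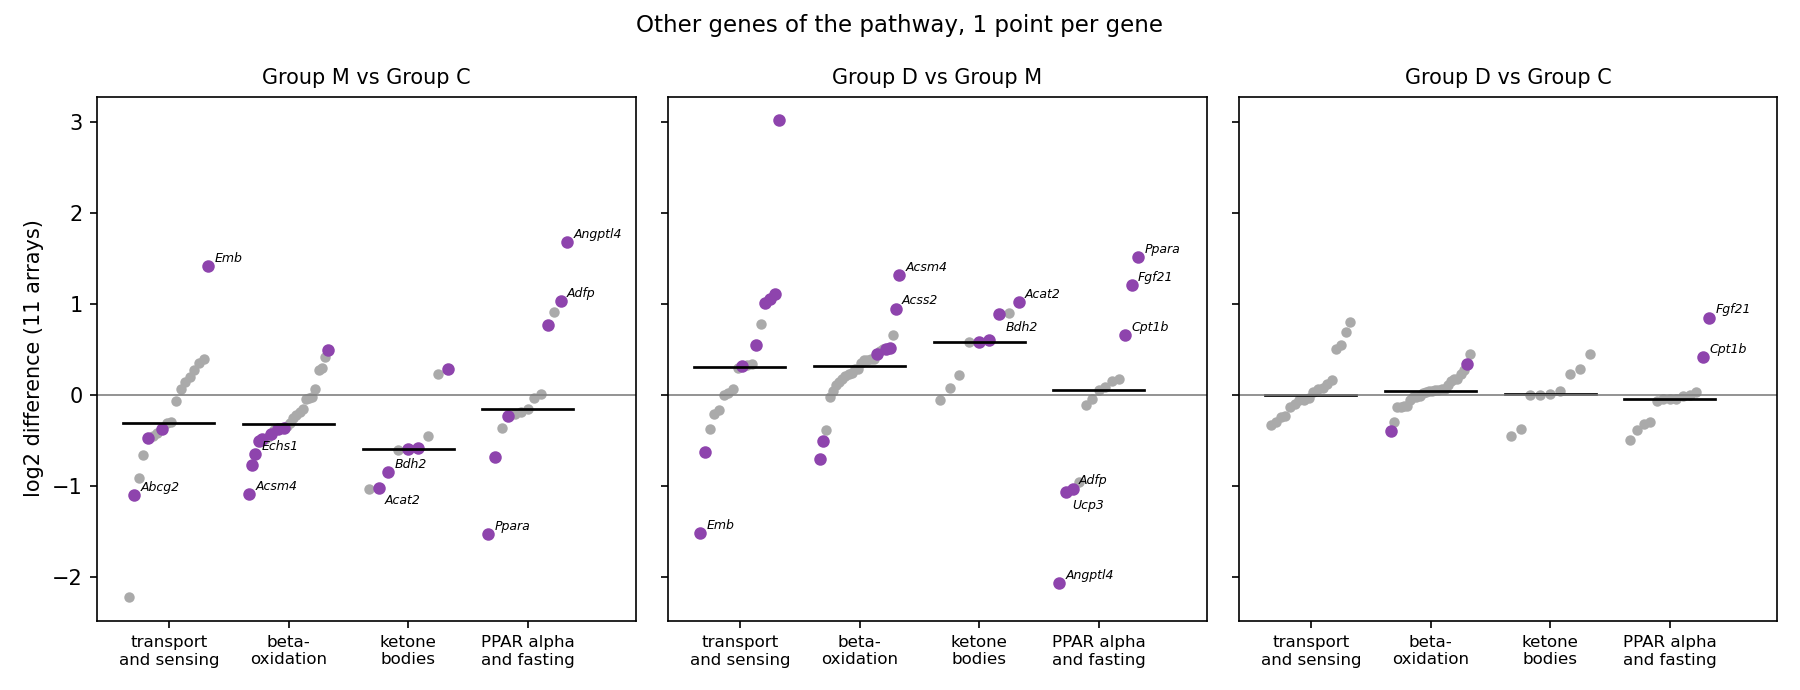
Log2 differences (y axis, 11 arrays) of the 66 measured genes of the 4 pathway lists in the 3 comparisons. Each point is a gene, bars are list medians, purple points have an unadjusted limma p of at most 0.05, and names are given at an unadjusted p of at most 0.01. Ketone body genes have the lowest median in Group M vs Group C (-0.60) and the highest in Group D vs Group M (0.58), and no gene passed an adjusted p of 0.05.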

How the data were processed

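Total RNA of 12 rat colons was labelled with Cy3 and hybridised to 1-colour Agilent arrays, 1 rat per array. The intensities were made by Feature Extraction 10.5.1.1 per the file headers, background-subtracted and not normalized between arrays when deposited. The authors' table of log2 values, quantile normalized, served as an alternative. The 75th percentile of the signal was 1434 to 1953 intensity units, and the number of arrays limits the precision. Here log2 of the intensity minus log2 of the array's 75th percentile was used, spots marked as outliers were dropped, and the remaining spots of each probe were averaged, which left 19 of 30367 probes without a value on some array. Positions are those of rn4 in the files.

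Differences were tested in R 4.3.3 by limma 3.58.1 (two-sided, a single linear model of the 3 groups with moderated variances), with Benjamini-Hochberg adjustment over all probes and a threshold of 0.05. The 11 arrays were used, as in the study's methods, whose criterion (analysis of variance and Tukey test, unadjusted p of at most 0.05, 2-fold change) was an alternative. Other alternatives were all 12 arrays, another background correction, 2 other normalizations, outlier spots kept, a filter on dim probes, array weights, the 2 compared groups alone, a replicate block, the mean of all probes of a gene, and each rat left out. P values measure the spread between rats. Whether rats shared a litter was not given in the sources used here. A probe was well above background on an array where more than 0.5 of its spots were. Correlations over rats had two-sided permutation tests of 100000 resamples, adjusted over 28 pairs. The procedure was tested on simulated data.

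The 8 genes and the lists were chosen with earlier results of these data known. Named are all 8 genes, Hcar2, Bsg and Slc26a3, and per comparison up to 5 pathway genes in each direction with the lowest unadjusted p of at most 0.01. Other genes fixed by name are not reported here. Figures were drawn with matplotlib 3.10.9.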

Additional observations from a re-analysis of the deposited data

Results flagged for a closer look

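Rat D12 lay far from the other rats of Group D for 2 of the 8 genes. For Acads its level was 3.12, against 4.27 to 4.49 in D9 to D11, and the gap made up 0.845 of the range of the group. For Acat1 its level was -0.27, against 0.09 to 0.10, and the gap made up 0.958 of the range. With groups of 4 rats, a share above Dixon's 95% critical value was taken. The check covered 24 groups, 8 genes in 3 groups each, and chance gives about 1 in 20. The same rat had the highest leukocyte sum of all rats (4.69), and it was taken to be the array absent from the 11 of the study. Why an array was left out was not given in the sources used here.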

How the results depend on the processing

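Over 22 to 23 alternatives per gene, the differences of Group M vs Group C kept their sign for all 8 genes. In Group D vs Group M, Slc16a1 became -0.09 with all 12 arrays, and Bdh1 became 0.05 without D11, within a range of -0.23 to 0.05 over rats left out, and 0.00 under a shift to the array median, where all 8 genes were higher. In Group D vs Group C, where no difference passed, Slc16a1 became 0.01 under normexp background correction and 0.05 under a shift to the array median, and ran from -0.15 to 0.05 over rats left out. Slc5a8 became -0.02 with 12 arrays (-0.06 to 0.19 over rats left out), Acads -0.26 with 12 arrays and -0.03 with array weights (-0.11 to 0.14 over rats left out), and Ffar3 ran from -0.02 to 0.51 over rats left out.

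The counts of genes called depended on M6 and on the weighting of arrays. Against 0 of 8, array weights called 3 in Group M vs Group C (28.3% of all probes) and 2 in Group D vs Group M (22.7%). Leaving out 1 rat at a time called 0 to 2 in each of these comparisons, 2 without M6 and 0 without any other rat. The criterion of the methods called 1 in Group M vs Group C, and an unadjusted p of at most 0.05 took 3 in each. Against 0 of 66 pathway genes, the counts in Group M vs Group C were 28 with weights, 0 to 18 over rats left out (18 without M6), 7 by the criterion of the methods and 24 by unadjusted p. In Group D vs Group M they were 29, 0 to 19 (19 without M6), 8 and 25, and 1, Cpt1b, under normexp, quantile normalization, the authors' table and the filter on dim probes. Of all probes tested, the settings that called Cpt1b called 1.09%, 0.194%, 0.211% and 1.47%, in the same order. Group D vs Group C had 4 of 66 by unadjusted p (5.97% of all probes). The cause was not tested. Ffar3 did not pass the filter on dim probes. With the replicate number as a block, 0 of 8 genes were called in each comparison (at most 0.00329% of all probes), and Ffar2 differed by -1.14 (limma adjusted p = 0.246) in Group M vs Group C. Deviations of 10 pairs of rats with the same number correlated from -0.559 to 0.384, 2 of them above 0.1. These values cannot decide whether the numbers pair rats, for example by litter, which was not given in the sources used here.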

Other observations

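The probes of other genes whose levels followed each of the 8 genes most closely over the 12 rats were sought among 13582 probes well above background on all arrays, as a description with no test. Ffar2 was followed most closely by Hddc3, Glod5 and Iscu, an iron-sulphur cluster scaffold of the mitochondrion (r = 0.98 each), and Acads by Esd, Abcb6, a mitochondrial transporter of porphyrins, and again Hddc3 (r = 0.99 each). Acat1 was followed by mitochondrial genes, Etfa (r = 0.95), which takes electrons from the acyl-CoA dehydrogenases, Aldh2 (0.94), the mitochondrial aldehyde dehydrogenase, and Cox7c (0.93), a subunit of cytochrome c oxidase. Slc5a8 was followed by Urod (r = 0.95), an enzyme of haem synthesis, and by Dpp10 and Rnf166 (0.93 each). For Slc16a1 they were Rpl41, a ribosomal protein gene, Aqp11 and Mfsd6 (0.97 each), and for Oxct1 Mtmr9, Ns5atp4 (0.95 each) and Ncrna00117 (0.94). Bdh1 had no probe at an r of 0.9, the closest being Oaf (0.81), Cldn19 (0.80) and Ppm1l (0.79), while 742 probes (5.46%) reached 0.9 with Ffar2. Ffar3 was left out because it was near background.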
